A study of Mus musculus with 24 samples.

Results

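The nuclear genes for subunits of the mitochondrial respiratory chain and ATP synthase were followed in quadriceps femoris muscle of 24 mice. They were picked by gene symbol alone: Ndufa, Ndufb, Ndufc, Ndufs or Ndufv with a number, Ndufab1, Sdha to Sdhd, the Uqcr genes, the Cox4 to Cox8 subunits and the Atp5 subunits. This gave 82 of the 18669 genes in the table. They were assigned to complexes by symbol as well, with every Nduf gene under complex I. There were 35 of complex I, 4 of complex II, 8 of complex III, 18 of complex IV and 17 of complex V. The symbol rule uses no expression value, but it was set with earlier results of these data known. Symbols outside the pattern were left out, so that Cyc1, the cytochrome c1 subunit of complex III, is not among the 82.

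Wild type mice, R6/2 mice and Hsf1 knockout (Hsf1-/-) mice, all on a CBA x C57BL/6 F1 background, were each studied under 4 treatments with 2 mice per group, and RNA was taken 4 h after treatment. HS mice were anaesthetised with isoflurane and held at 41.5 °C for 15 min, and their controls were anaesthetised and held at 36.9 °C for 21 min. HSP990 blocks the chaperone HSP90 and was dosed orally at 12 mg/kg by gavage, suspended in methyl cellulose and saline, and vehicle mice received saline by the same route. R6/2 mice carry a transgene with exon 1 of mutant human HTT under the human HTT promoter and model Huntington's disease, and Hsf1-/- mice lack heat shock factor 1, the main activator of heat shock genes, in every tissue. Wild type and R6/2 mice were 12 weeks old. The Hsf1-/- mice were younger, 10 weeks in the HS experiment and 8 weeks in the HSP990 experiment, so age and genotype cannot be told apart in comparisons of Hsf1-/- with wild type mice.

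The respiratory chain passes electrons from NADH (complex I) and succinate (complex II) through complexes III and IV to oxygen, and complex V uses the resulting proton gradient to make ATP. Apart from complex II, each complex joins subunits encoded in the mitochondrial genome with many encoded in the nucleus. Nuclear subunit genes are known to be controlled together by NRF1, by GABP (an ETS factor) and by estrogen-related receptors, with the coactivator PGC-1alpha (Ppargc1a). Skeletal muscle uses its own isoforms of several complex IV subunits, and slow fibres hold more mitochondria than the fast glycolytic fibres that prevail in mouse quadriceps.

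The authors deposited read counts per gene, with totals of 22450177 to 46599238 per library. Levels are given as CPM (counts relative to the library total after TMM scaling, which sets libraries level on their middle genes), and 13754 genes entered the tests, each with 2 or more counts in 10 or more libraries. A gene is said to have changed when its Benjamini-Hochberg adjusted p in edgeR's quasi-likelihood test over those genes was below 0.05. Muscle markers were high in every library: the summed level of Acta1, Ckm, Actn3, Tnnt3 and Mb was 106058 to 136226 CPM in wild type, 92812 to 140247 in Hsf1-/- and 20722 to 42627 in R6/2 mice. Hsf1 itself read 52.9 to 68.5 CPM in wild type, 45.3 to 53.7 in R6/2 and 21.1 to 29 in Hsf1-/- mice, so part of the transcript is still counted in the knockout. In the HS experiment the Y-linked genes Ddx3y, Kdm5d and Eif2s3y had 0 counts in all wild type and R6/2 mice, whereas they were present in the wild type and R6/2 mice of the HSP990 experiment and in all Hsf1-/- mice. The experiments thus differed in Y-linked transcripts in wild type and R6/2 mice, as did Hsf1-/- from wild type mice within the HS experiment. With 2 mice per group, an exact permutation test of 1 group against another cannot go below a p of 0.333, and edgeR pooled the spread of all 12 groups.

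Of the 82 genes, 76 passed the filter on low counts. Cox7b2 and Cox8c, isoforms known from testis, had 2 and 0 counts in the 24 libraries together. The other 4 that failed were listed at 0 in every library, although muscle uses them: Atp5g1 and Atp5g2 (both encode the c subunit of the ATP synthase rotor), Atp5l (its g subunit) and Cox7a2l (a supercomplex factor). The share of 40-base windows of the transcript that occur a further time in the mm9 genome was 87.3% for Atp5g1, 100% for Atp5g2, 89.6% for Atp5l and 59.7% for Cox7a2l. Shared windows and low levels were also found in Atp5md (80.5% of windows, median 6.35 CPM), Cox7c (72.1%, 19.5 CPM), Ndufab1 (53.1%, 9.98 CPM) and Ndufb4 (42%, 9.16 CPM). How reads with several positions were counted is not given in the sources used here, so the levels of these genes are uncertain.

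Apart from the isoform pairs below, levels were compared between genes only for the 43 with at most 5% of windows elsewhere. They are given per kb of transcript in the 4 untreated wild type mice. The catalytic subunits of ATP synthase led, with 2446 ± 103 CPM per kb for Atp5b (beta subunit) and 1522 ± 84.5 for Atp5a1 (alpha subunit; SD, n = 4). The muscle isoform Cox6a2 followed with 1506 ± 88.8 CPM per kb, which differed from Atp5a1 by less than the spread between mice, and then Cox4i1 with 1120 ± 123 and Cox8b with 997 ± 51.8. Complex medians were 267 CPM per kb for the 21 genes of complex I, 293 for the 4 of complex II, 604 for the 4 of complex III and 975 for the 6 of complex V. The membrane anchors of succinate dehydrogenase, Sdhc (34.3 ± 6.19 CPM per kb) and Sdhd (53.5 ± 5.59), read far below its catalytic subunits Sdha (550 ± 23.0) and Sdhb (532 ± 28.7).

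Respiratory chain transcripts were lower in R6/2 than in wild type mice. Averaged over control and vehicle mice, 67 of the 76 genes fell and 0 rose, beside 30.5% of all tested genes that changed in either direction and 15.4% that fell. The median of the 76 log2 fold changes was -0.54, against 0.05 for all tested genes, and all 76 were negative. For 55 of the 76, each of the 4 untreated R6/2 mice was below each of the 4 untreated wild type mice, which held for 13.7% of tested genes. By library size alone this held for 2 of the 76 and 1.83% of tested genes. With the treated mice included, all 8 R6/2 mice were below all 8 wild type mice for 20 of the 76, compared with 4.90% of tested genes, and by library size alone for 0 of the 76 and 0.676%. In whole muscle, fewer cells of a type and less RNA per cell cannot be told apart.

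**Figure D1:**
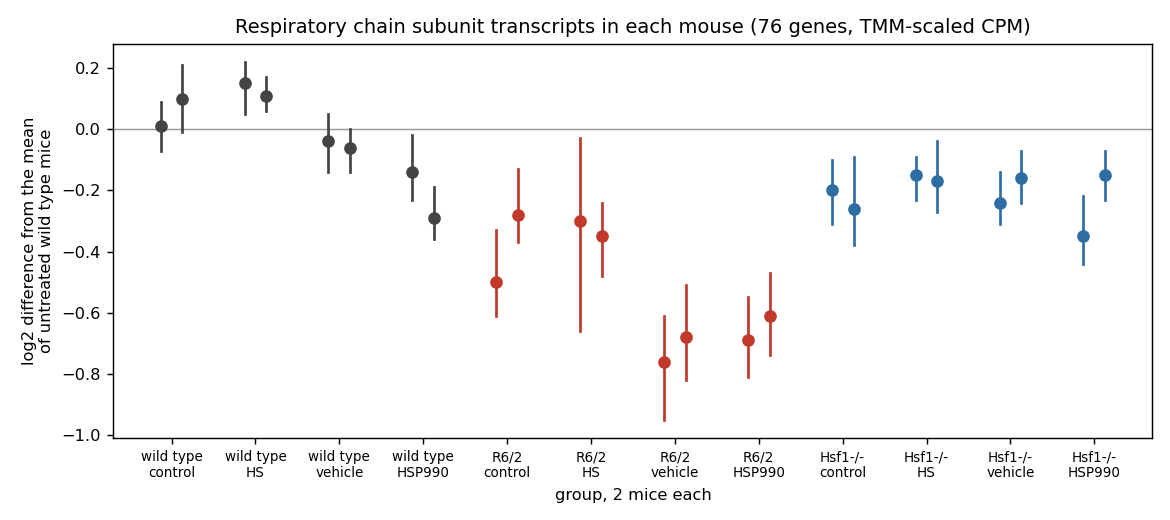
Median (point) and quartiles (line) over 76 subunit genes of the log2 difference from the mean of untreated wild type mice, for each of 24 mice in 12 groups. The medians of R6/2 mice lay between -0.76 and -0.28, those of wild type mice between -0.29 and 0.15 and those of Hsf1-/- mice between -0.35 and -0.15.

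The direction of this difference rests on the scale. The 20 most abundant genes, among them Myh4, Acta1, Ckm and Atp2a1 and none of the 82, held 34.4 ± 0.315% of all counts in untreated wild type mice and 15.6 ± 2.45% in untreated R6/2 mice (SD, n = 4). As a share of all counts the 82 genes took 2.79 ± 0.142% in untreated wild type and 2.78 ± 0.337% in untreated R6/2 mice, which overlap. Of the counts outside those 20 genes they took 4.26 ± 0.226% and 3.31 ± 0.486%. Scaled by library size alone, the median log2 fold change of the 76 genes was 0.06 while that of all tested genes was 0.66. On this scale 14 of the 76 were called higher and 10 lower, beside 8455 and 421 of the 13754 tested genes. The 76 genes were thus lower relative to the middle of all tested genes on either scale, and level with wild type as a share of all RNA counted. TMM, RLE size factors, TMM without the 20 most abundant genes and TMM without the subunit genes each gave 67 falls. Muscle markers fell further: Acta1 (skeletal actin) by 2.61, Ckm (muscle creatine kinase) by 2.03 and Myh4 (the type 2B myosin) by 2.11 on the log2 scale.

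**Figure D2:**
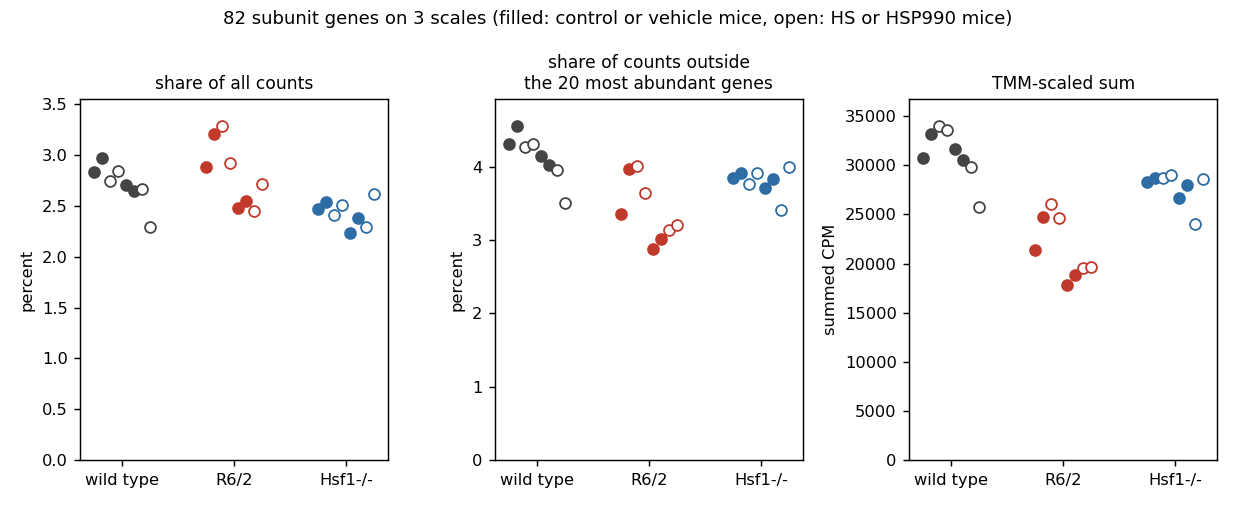
Level of the 82 subunit genes in each mouse as a percent of all counts, as a percent of counts outside the 20 most abundant genes and as summed TMM-scaled CPM, by genotype. Untreated R6/2 mice overlapped untreated wild type mice on the first scale and lay below every untreated wild type mouse on the others (2.88 to 3.97% against 4.03 to 4.55%, and 17766 to 24718 against 30565 to 33174 CPM).

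The fall was present in each experiment on its own. Among control mice of the HS experiment 29 of the 76 genes fell (background 12.4% changed, 6.94% fell), with a median of -0.48, and among vehicle mice of the HSP990 experiment 61 fell (19.2% and 10.5%), with a median of -0.66. The median among control mice was -0.33 without R6/2 control replicate 1. When only the 4 libraries compared were fitted, the count among control mice dropped to 1. That fit called 492 of the 13754 tested genes, 301 of them lower, so calls dropped among all genes as well. Over both experiments, leaving out 1 mouse gave 59 to 66 falls.

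**Figure D3:**
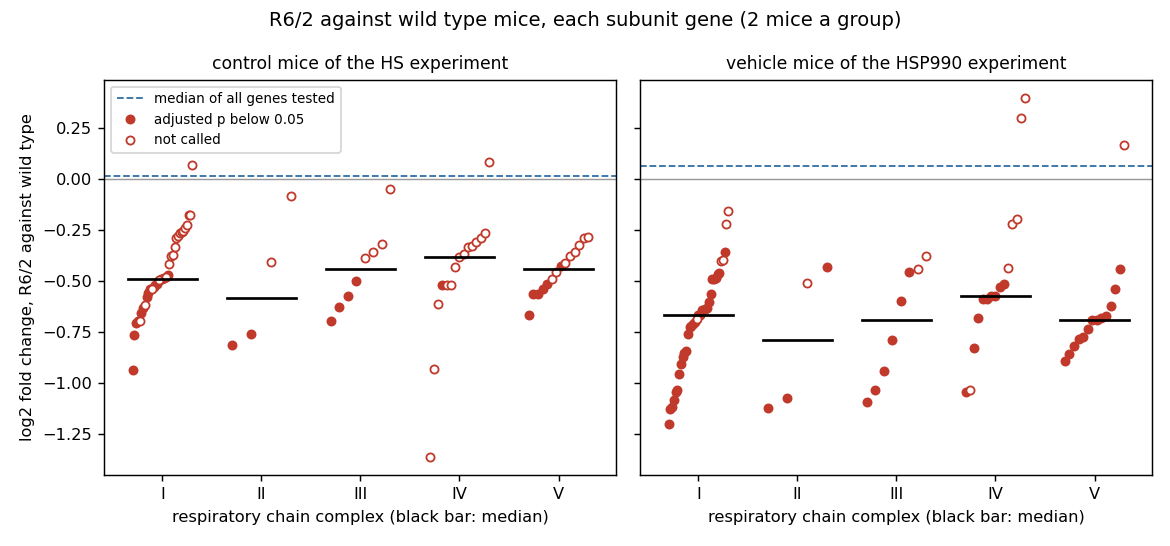
Log2 fold change of each tested subunit gene between R6/2 and wild type mice by complex, in control and in vehicle mice, with filled points for an adjusted p below 0.05, black bars for the median of a complex and a dashed line for the median of all genes tested. The medians of the 5 complexes ran from -0.58 to -0.38 in control and from -0.79 to -0.57 in vehicle mice.

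In complex I, 33 of 35 genes fell, with a median log2 fold change of -0.59. The 7 genes for its catalytic core, which binds NADH and carries electrons over iron-sulphur clusters, all fell, with a median of -0.86 (range -1.01 to -0.51). Of the 28 other genes with Nduf symbols 26 fell, with a median of -0.57. The core and other medians were close among control mice (-0.53 and -0.48) and further apart among vehicle mice (-1.03 and -0.64). As a description, member fold changes had Spearman correlations of -0.43 with transcript length and -0.42 with mean level. The part of either in the core difference was not tested. Ndufs7, which holds the last iron-sulphur cluster before ubiquinone (chromosome 10 of mm9, 79711866 to 79719539), read 308 and 364 CPM in wild type control and 292 and 280 in vehicle mice, and 150 and 201 in R6/2 control and 125 and 145 in vehicle mice. Every R6/2 value was below every wild type value, which gave -1.01 on the log2 scale (adjusted p = 3.2e-05, standard error 0.132, edgeR). Ndufs1, the largest core subunit, read 577, 570, 634 and 590 CPM in untreated wild type and 311, 393, 274 and 290 in untreated R6/2 mice (-0.91, standard error 0.109). Ndufb10 (-0.89) and Ndufs8 (-0.87) followed. The 2 complex I genes that did not pass were Ndufa1 (94.0 ± 22.6 against 106 ± 26.2 CPM) and Ndufa3 (81.0 ± 18.3 against 84.1 ± 9.91 CPM; SD, n = 4).

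All 4 genes of complex II, succinate dehydrogenase, fell. Sdha, the flavoprotein that oxidises succinate (chromosome 13, 74459702 to 74487728), read 1660, 1635, 1513 and 1566 CPM in the untreated wild type mice and 972, 903, 687 and 778 in the untreated R6/2 mice. The groups were far apart in both experiments (-0.94 over both, standard error 0.097, adjusted p = 3.7e-06, edgeR), and Sdha was among the genes that the study used as a reference in qPCR. Sdhb, the iron-sulphur subunit, fell by 0.94, whereas the membrane anchors fell less, Sdhd by 0.46 and Sdhc by 0.26 on the log2 scale. The call for Sdhd was lost without wild type control replicate 2, either wild type vehicle mouse, R6/2 control replicate 1 or R6/2 vehicle replicate 2 (-0.56 to -0.37 over the 8 omissions). That for Sdhc was lost without wild type control replicate 2, wild type vehicle replicate 1 or R6/2 vehicle replicate 1 (-0.29 to -0.22), and both values were positive by library size alone.

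In complex III, 7 of 8 genes fell, led by the core proteins Uqcrc2 (-0.86) and Uqcrc1 (-0.86) and the Rieske iron-sulphur protein Uqcrfs1 (-0.76). Uqcrc2 (chromosome 7, 127778690 to 127802992) read 626, 632, 694 and 667 CPM in untreated wild type and 360, 418, 331 and 334 in untreated R6/2 mice, without overlap (adjusted p = 1.8e-06, edgeR). Uqcrq and Uqcrh fell by 0.65 and 0.48, and the call for Uqcrh was lost without wild type vehicle replicate 1, R6/2 control replicate 1 or R6/2 vehicle replicate 1. Uqcrb was 64.1 ± 5.16 against 75.9 ± 7.39 CPM (SD, n = 4) and did not pass, and 69.2% of its windows occur elsewhere in the genome.

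In complex V, 13 of 14 genes fell, over a narrow range of -0.73 to -0.40. Atp5b (chromosome 10, 127520329 to 127527447), also a qPCR reference of the study, read 4524, 4947, 4737 and 4541 CPM in untreated wild type and 3266, 3779, 2886 and 2855 in untreated R6/2 mice. It was lower in each of the 4 R6/2 mice (-0.56, standard error 0.091, adjusted p = 2.3e-04, edgeR), while by library size alone it differed by 0.05. Of the 3 c-subunit genes only Atp5g3 was measured, at 613, 702, 721 and 693 CPM in wild type and 410, 479, 364 and 398 in R6/2 mice (-0.73). Atp5o (-0.72), Atp5d (-0.71), Atp5pb (-0.65) and Atp5j2 (-0.64), of the stalks and membrane part, were close to it. The 1 gene that did not pass, Atp5md, was 7.17 ± 2.11 against 8.06 ± 3.25 CPM and shares most of its windows.

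In complex IV, cytochrome c oxidase, 10 of 15 tested genes fell. Cox7b (-0.55), Cox5a (-0.51) and Cox4i1 (-0.48) were near the median of all 76, and by library size alone these values were positive (0.06, 0.10 and 0.13). Cox6c was the flattest of all members, at 272, 258, 271 and 265 CPM in untreated wild type and 285, 276, 223 and 244 in untreated R6/2 mice (-0.06, standard error 0.103, adjusted p = 0.72, edgeR). Cox8a, Cox7c, Cox4i2 and Cox6b2 also did not pass, and Cox6b2 had 59 counts in all 24 libraries.

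By counts, the muscle isoforms Cox6a2 and Cox8b prevailed over their ubiquitous partners in every mouse. Cox6a2 made up 92.6 to 97.9% of the Cox6a pair in wild type, 95.4 to 97.5% in R6/2 and 88.0 to 98.2% in Hsf1-/- mice. Cox8b made up 83.5 to 92.5%, 79.6 to 89.9% and 74.7 to 91.9% of its pair, and Cox4i1 held at least 99.5% against Cox4i2, the lung and hypoxia isoform, in every mouse. By counts the Cox7a pair was closer to even. Cox7a1 made up 54.5 to 61.4% in wild type, 48.9 to 55.5% in R6/2 and 51.8 to 58.1% in Hsf1-/- mice. These shares do not depend on the scaling, but they are not corrected for transcript length or shared windows. The transcripts of Cox7a1 and Cox7a2 have 364 and 754 bases. Per kb they read 589 ± 62.8 and 209 ± 13.1 CPM in untreated wild type mice (SD, n = 4). Of the windows of Cox6a1, Cox7a2 and Cox8a, 17.5%, 8.39% and 27.5% occur elsewhere, against 0% for Cox6a2, Cox7a1 and Cox8b. Cox7a1 (chromosome 7, 30969190 to 30971047) fell by 0.74 in R6/2 mice (adjusted p = 1.2e-04, edgeR), from 182, 215, 234 and 226 CPM to 124, 171, 103 and 120, and Cox7a2 fell by 0.44. Cox6a2 fell by 0.67, Cox8b by 0.45 and Cox6b1 by 0.40, the last 2 with positive values by library size alone.

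Cox6a1, the ubiquitous partner of Cox6a2 (chromosome 5, 115795651 to 115798990), had the lowest fold change of all members in R6/2 mice (-1.20, standard error 0.357, adjusted p = 0.017, edgeR) and the widest spread. It read 76 and 40.8 CPM in wild type control, 20.4 and 40.02 in vehicle, 21.5 and 24.0 in R6/2 control and 13.7 and 15.8 in R6/2 vehicle mice. The groups overlap, and the call was lost without wild type control replicate 1 (adjusted p = 0.086, edgeR), wild type vehicle replicate 2 (0.092), R6/2 control replicate 1 (0.062) or R6/2 vehicle replicate 1 (0.057). Its highest values, 76 CPM in wild type control replicate 1, 75.1 in Hsf1-/- HSP990 replicate 1 and 58.3 in wild type HS replicate 2, came from the same 3 mice as the highest values of Cox8a (75.01, 79.2 and 63.3 CPM) and of Ucp1 (200.4, 495 and 150.0 CPM), the uncoupling protein of brown fat. The 5 adipocyte markers, all detected, summed to 68.0 to 645 CPM in wild type, 54.7 to 144 in R6/2 and 164 to 916 in Hsf1-/- mice. Plin1 and Cidec had log2 fold changes of -2.43 and -1.93 in R6/2 mice, but both calls were lost without wild type control replicate 1 (-1.92 and -1.34), wild type vehicle replicate 2 (-1.46 and -1.17), either R6/2 control mouse or R6/2 vehicle replicate 2. The part of adipose RNA in the Cox6a1 difference was not tested.

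**Figure D4:**
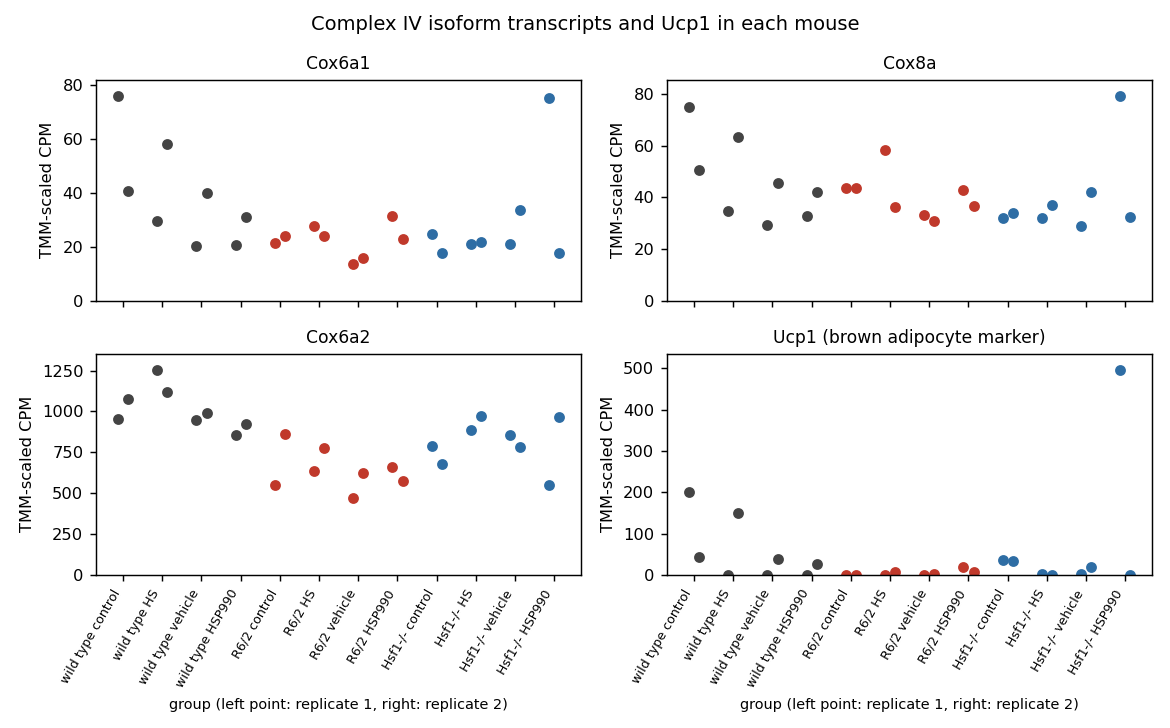
TMM-scaled CPM of Cox6a1, Cox8a, Cox6a2 and Ucp1 in each of 24 mice, 2 per group. The 3 mice with most Ucp1 (150.0 to 495 CPM) also had most Cox6a1 (58.3 to 76 CPM), and Cox6a2 read 550.2 to 1121 CPM in them.

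Other genes of mitochondrial energy metabolism were compared in the same untreated R6/2 and wild type mice, with gene lists that hold no member. These lists too were chosen with earlier results of these data known. The counts below stand beside 30.5% of all tested genes called in this comparison and 15.4% that fell. In the citric acid cycle 11 of 14 genes fell and 0 rose (median -0.61), led by Idh3b, a subunit of isocitrate dehydrogenase (320 ± 65.6 against 634 ± 54.4 CPM; SD, n = 4), and Idh3a. Of cytochrome c and the electron donors to the chain 5 of 7 fell, among them Gpd2 (by 1.19), Cyc1 (by 0.91), Dhodh (by 0.67), Cycs (by 0.65) and Etfb (by 0.35). Of 40 assembly factors, which help to build the complexes, 23 fell and 1 rose (median -0.42), with the largest falls in Lyrm7 (1.09), Cox15 (0.99), Taco1 (0.95), Lrpprc (0.82) and Cox11 (0.81). Of 12 genes of fatty acid oxidation 4 fell, Cpt2 (by 0.86), Echs1 (0.79), Hadh (0.75) and Acaa2 (0.61), and Acadl was called higher (0.41), with a median of 0.03. The Acadl call was lost without wild type control replicate 2, either wild type vehicle mouse, R6/2 control replicate 1 (0.23) or R6/2 vehicle replicate 1. The experiments differed for this list, with 4 up, 3 down and a median of 0.30 among control mice (12.4% of all tested genes called). Among vehicle mice 0 were up and 4 down, with a median of -0.38 (19.2% of all tested genes called). This difference was not tested. Among 20 regulators of mitochondrial biogenesis 5 were called lower and 1 higher, 6 of 20 beside the 30.5% of all tested genes called. They include Ppargc1b, a PGC-1 coactivator, from 16.8 ± 3.32 to 7.73 ± 2.36 CPM, Tfam, the packaging factor of mitochondrial DNA, from 78.0 ± 4.92 to 54.5 ± 1.07 CPM (a difference of 0.09 by library size alone), while Gabpa was called higher, at 80.2 ± 9.96 against 60.5 ± 6.21 CPM. The Gabpa call was lost without wild type control replicate 2, wild type vehicle replicate 2, R6/2 control replicate 1 or R6/2 vehicle replicate 1 (0.32 to 0.50 over the 8 omissions). Ppargc1a, Nrf1 and Esrra did not pass in this comparison.

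Motifs of the factors named above were searched in RefSeq promoter windows of build GRCm38.p6, which run from 250 bases before to 50 after a start site, on both strands. The letters of CGCATGCG read the same on both strands. Windows were found for 67 of the 82 genes and for 10838 of the tested genes. The NRF1-type motif CGCATGCG was present in 8 of 67 (11.9%; 3.8% of tested genes), the ETS-type motif CCGGAAG in 17 (25.4%; 17.9%) and the ERR-type motif TCAAGGTCA in 2 (3.0%; 0.304%). Some windows hold more than 1 motif, and any of the 3 was present in 21 (31.3%; 21.0%). These member counts include genes that failed the filter, unlike the shares of tested genes. Among tested members the NRF1-type motif was present in 6 and absent from 56. For the ETS-type these counts were 16 and 46, and for the ERR-type 2 and 60. The median R6/2 log2 fold change was -0.53 in the 19 tested genes with a match and -0.57 in the 43 without. The 5 windows shown are those of the member with a match and the largest fall in each complex, with matches on either strand in capitals, read 5′ to 3′ on the strand of the gene. They are Ndufs8 (chr19:3912725-3913024, minus strand), Sdhb (chr4:140961021-140961320, plus), Uqcrc1 (chr9:108936398-108936697, plus), Cox6a1 (chr5:115348909-115349208, minus) and Atp5g3 (chr2:73911277-73911576, minus).
Ndufs8: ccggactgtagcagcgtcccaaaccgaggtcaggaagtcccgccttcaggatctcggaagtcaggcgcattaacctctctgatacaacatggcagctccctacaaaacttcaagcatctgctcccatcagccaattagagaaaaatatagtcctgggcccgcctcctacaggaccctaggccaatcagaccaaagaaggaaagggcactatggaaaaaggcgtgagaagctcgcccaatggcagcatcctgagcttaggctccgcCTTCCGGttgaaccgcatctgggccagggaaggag
Sdhb: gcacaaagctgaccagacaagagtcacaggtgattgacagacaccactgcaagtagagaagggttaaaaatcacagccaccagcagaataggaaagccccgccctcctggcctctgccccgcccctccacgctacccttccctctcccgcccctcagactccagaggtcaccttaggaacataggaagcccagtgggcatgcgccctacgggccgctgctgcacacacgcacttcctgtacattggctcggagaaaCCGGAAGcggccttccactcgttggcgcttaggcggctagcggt
Uqcrc1: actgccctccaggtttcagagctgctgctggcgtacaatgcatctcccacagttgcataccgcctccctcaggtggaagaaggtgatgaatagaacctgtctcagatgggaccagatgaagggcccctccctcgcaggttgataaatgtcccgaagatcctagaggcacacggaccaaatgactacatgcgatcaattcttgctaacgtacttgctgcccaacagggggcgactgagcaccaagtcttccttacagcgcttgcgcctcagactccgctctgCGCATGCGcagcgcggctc
Cox6a1: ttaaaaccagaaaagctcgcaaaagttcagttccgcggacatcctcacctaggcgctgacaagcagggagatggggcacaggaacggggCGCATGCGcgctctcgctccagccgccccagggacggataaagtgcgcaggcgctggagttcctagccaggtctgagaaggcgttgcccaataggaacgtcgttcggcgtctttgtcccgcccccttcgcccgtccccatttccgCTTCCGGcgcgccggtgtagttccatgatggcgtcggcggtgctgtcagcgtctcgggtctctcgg
Atp5g3: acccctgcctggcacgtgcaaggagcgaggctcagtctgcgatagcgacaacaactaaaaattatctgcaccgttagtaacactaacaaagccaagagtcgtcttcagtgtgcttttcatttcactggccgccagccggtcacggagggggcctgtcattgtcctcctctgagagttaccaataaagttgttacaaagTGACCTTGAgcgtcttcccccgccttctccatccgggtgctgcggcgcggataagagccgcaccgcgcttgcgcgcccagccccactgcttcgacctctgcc
Cox6a1 holds both an NRF1-type and an ETS-type match, Ndufs8 and Sdhb an ETS-type match, Uqcrc1 an NRF1-type match and Atp5g3 an ERR-type match.

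Within wild type and within R6/2 mice, subunit transcripts also differed between the 2 experiments, whatever the treatment. In wild type mice, all 4 mice of the HS experiment were above all 4 of the HSP990 experiment for 28 of the 76 genes (7.71% of tested genes), and in R6/2 mice for 31 (5.28%). In Hsf1-/- mice this held for 4 (2.86%). Those mice had Y-linked transcripts in both experiments, and were 10 weeks old in the HS and 8 weeks in the HSP990 experiment. Cox6b1, the intermembrane subunit of complex IV, shows the pattern: 325, 337, 341 and 327 CPM in wild type control and HS mice, and 259, 260, 233 and 230 in wild type vehicle and HSP990 mice. In R6/2 mice it read 255, 295, 292 and 257, and 179, 181, 180 and 197 CPM, and in Hsf1-/- mice it lay between 218 and 264 CPM in both experiments. Y-linked transcripts, anaesthesia, the age of Hsf1-/- mice and the other differences between the experiments cannot be told apart here.

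Hsf1-/- mice had slightly lower levels than wild type mice, from which they also differed in age and, in the HS experiment, in Y-linked transcripts. Averaged over control and vehicle mice, 70 of the 76 log2 fold changes were negative, with a median of -0.24 (0.00 for all tested genes). An unadjusted p below 0.05 was found for 38 (1991 of the 13754 tested genes). After adjustment edgeR called 0 (background 0.974%) and DESeq2 called 4, beside 369 of all tested genes. All 4 untreated Hsf1-/- mice were below all 4 untreated wild type mice for 31 of the 76, compared with 4.24% of tested genes, and by library size alone for 38 (5.61%). Cox7a1 read 145, 178, 150 and 162 CPM in these mice and 182 to 234 in wild type mice (-0.43, adjusted p = 0.082, edgeR), and Uqcrq had the lowest adjusted p, at 317.5 against 430.4 CPM on average (-0.43, adjusted p = 0.062). The highest log2 fold change was that of Ndufa5, 0.09.

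Among control mice alone 4 genes fell (background 1.93% changed, 1.17% fell): Cox6b1 (230 ± 17.0 against 331 ± 8.03 CPM), Ndufc1 (155 ± 1.41 against 221 ± 7.06), Ndufb8 (339 ± 16.3 against 466 ± 4.42) and Atp5e (322 ± 1.93 against 468 ± 24.0; SD, n = 2). In vehicle mice 0 fell by edgeR (background 0.0872%) or DESeq2 (105 of all tested genes called). There 5 members and 1259 of all tested genes had an unadjusted p below 0.05, against 37 and 2520 in control mice. The member median was -0.12 in vehicle and -0.30 in control mice. Genotype, age and Y-linked transcripts cannot be told apart in the control comparison. Wild type vehicle mice read 259 and 260 CPM for Cox6b1, 168 and 170 for Ndufc1, 384 and 409 for Ndufb8 and 364 and 375 for Atp5e. In wild type mice these genes were thus higher in control than in vehicle mice. Each call among control mice was lost when any 1 of the 4 mice compared was left out, with member medians of -0.35 to -0.23. DESeq2 called 13 members, beside 733 of all tested genes, and a fit of these 4 libraries alone called 19, beside 766. The summed level of 6 slow fibre markers was 405 and 537 CPM in Hsf1-/- control, 37.5 and 27.7 in Hsf1-/- vehicle, 167 and 213 in wild type control and 368 and 272 in wild type vehicle mice, and its part in these values was not tested.

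No subunit gene passed the test after either treatment in any genotype, with edgeR or with DESeq2. After HS, edgeR called 0 of 76 in wild type (background 2.06%), R6/2 (0.0436%) or Hsf1-/- mice (0.00727%), and 1, 6 and 1 had an unadjusted p below 0.05, beside 1627, 1117 and 1211 of all tested genes. The median log2 fold changes were 0.06, 0.09 and 0.05. Ppargc1a, the PGC-1alpha gene, rose after HS in wild type mice, from 24.4 and 28.9 to 98.5 and 121.7 CPM (log2 fold change 2.05, adjusted p = 0.013, edgeR), and in Hsf1-/- mice, from 31.7 and 39.4 to 441 and 178 CPM (3.12, adjusted p = 0.016). Each call was lost in 3 of the 4 fits that left out 1 mouse, and held without wild type HS replicate 1 and without Hsf1-/- HS replicate 2. The log2 fold change was 1.89 to 2.19 and 2.33 to 3.63 over these fits. In R6/2 mice it read 26.4 and 23.1 in control and 31.3 and 69.8 CPM in HS mice. The wild type extremes after HS were Atp5md (-0.45) and Atp5pb (0.29), and those in R6/2 mice Ndufb3 (-0.39) and Ndufab1 (0.47). In Hsf1-/- mice Cox4i2 was lowest (-0.23), and the highest, Cox6b2, rested on 0 to 0.119 CPM.

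**Figure D5:**
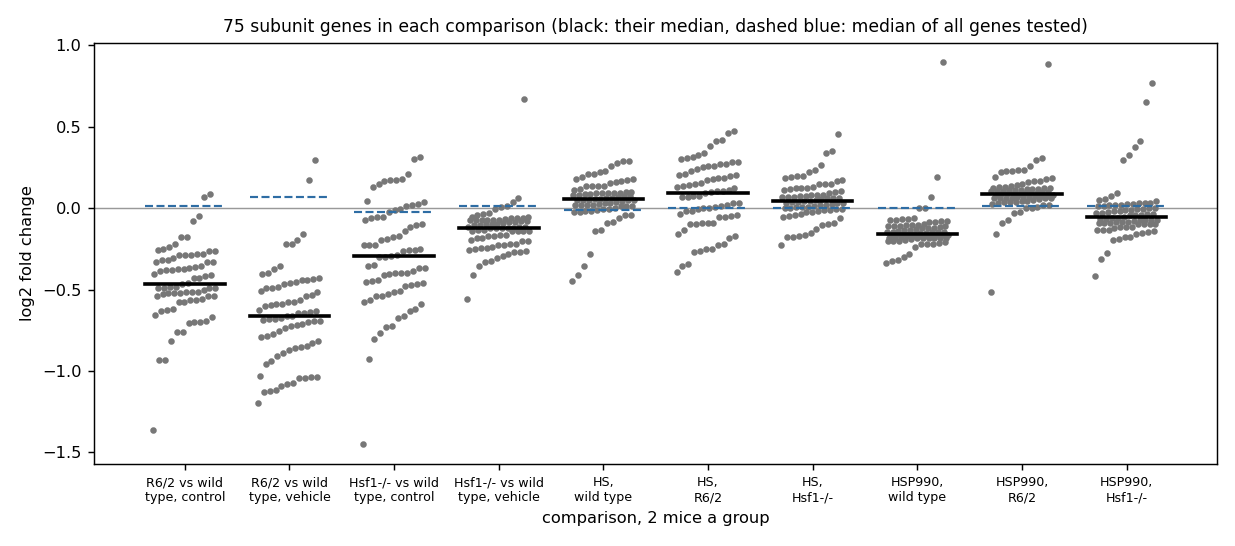
Log2 fold changes of 75 subunit genes (Cox6b2, with 59 counts in all, left out) in 4 comparisons of genotypes and 6 of treatments, with black bars for their median and dashed bars for the median of all genes tested. Genotype medians reached -0.66, while the 6 treatment medians lay between -0.16 and 0.09.

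After HSP990, edgeR called 0 of 76 in wild type (background 1.85%), R6/2 (1.43%) or Hsf1-/- mice (0.218%), with 3, 0 and 1 members at an unadjusted p below 0.05, beside 1816, 1306 and 1304 of all tested genes. In wild type mice 72 of the 76 log2 fold changes were negative, with a median of -0.16. Sdha read 1513 and 1566 CPM in vehicle and 1406 and 1052 in HSP990 mice (-0.33, adjusted p = 0.3, edgeR), and Ndufs4 had the lowest log2 fold change (-0.33). HSP990 replicate 2 was the lower of the pair, with a member median of -0.29 against -0.14 for replicate 1, and the 6 slow fibre markers summed to 59.4 CPM in it and 455 in replicate 1. In R6/2 mice 68 of 76 were positive, with a median of 0.09, Cox6a1 highest (0.89) and Atp5md lowest (-0.52). In Hsf1-/- mice the median was -0.05, with Cox6a1 highest (0.77) and Cox4i2 lowest (-0.42).

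The difference between genotypes in these responses was tested directly. For HSP990, 74 of 76 members had a larger value in R6/2 than in wild type mice, with a median difference of 0.25, and 0 were called by edgeR or DESeq2 (background 0%). An unadjusted p below 0.05 was found for 3 members and for 981 of the 13754 tested genes. Sdha, with a difference of 0.56 (standard error 0.192, adjusted p = 0.54, edgeR), had the lowest p. For HS the median difference was 0.02 and 0 were called (0.0727%), with 5 members and 669 of all tested genes at an unadjusted p below 0.05. Between Hsf1-/- and wild type mice it was 0.00 for HS (0 called, background 0.160%) and 0.12 for HSP990 (0 called, 0.422%). Here 0 and 1 members had an unadjusted p below 0.05, beside 511 and 948 of all tested genes. The HS response less the HSP990 response had a median of 0.22 in wild type mice, where 70 of 76 were positive. Its median was -0.04 in R6/2 and 0.06 in Hsf1-/- mice. By edgeR 0 members were called in each (background 2.38%, 1.63% and 0.145%). DESeq2 called 1 in wild type mice, beside 648 of all tested genes. An unadjusted p below 0.05 was found for 2, 2 and 1 members, beside 2050, 1448 and 1494 of all tested genes.

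R6/2 HS replicate 1 stood apart among the libraries in its subunit genes. The log2 difference between the 2 mice of this group had an SD of 0.48 over the 76 tested members, against 0.13 to 0.36 in the other groups. Over 8799 genes with a mean above 5 CPM the SD was 0.46, and 0.49 in Hsf1-/- HSP990 mice. As a description, the difference had a Spearman correlation of 0.46 with the GC content of the transcript over 73 members (-0.38 to 0.33 in the other groups). Over the 8799 genes this correlation was 0.58 (-0.36 to 0.10 in the other groups). Ndufa1 (200 CPM against 93.5 in replicate 2) and Cox4i1 (908 against 672) were high in it, and Uqcrh (121 against 243), Uqcrb (39.4 against 67.8) and Ndufb4 (3.32 against 8.65) low. Without replicate 2 of this group, so that replicate 1 stood for it alone, 11 members were called in the HS comparison of R6/2 mice. No untreated comparison has this library in its groups, but it entered the shared estimate of spread behind their p-values and standard errors. It is also among the 8 R6/2 mice that were set against all 8 wild type mice.

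Over the means of the 12 groups, the genes outside the list most like the median member in Spearman correlation of log2 CPM were Txn2 (1.000), Coq9 (0.993), Cyc1, Idh3b and Pxmp2 (0.986 each). Txn2 encodes mitochondrial thioredoxin, Coq9 a protein of ubiquinone synthesis and Pxmp2 a peroxisomal membrane protein. The 12 means share their libraries and scaling factors, so these values are descriptions.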

How the data were processed

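RNA was extracted with TRIZOL from quadriceps femoris of 24 mice and sequenced as strand-specific paired-end libraries after poly(A) selection. The authors mapped the reads to mm9 with Bowtie and deposited raw counts per gene. DESeq2 is named in the submitters' processing notes, and the counting program and annotation are not given in the sources used here. Groups came from the sample labels, which do not say whether mice shared a litter.

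From the deposited counts, 13754 genes with 2 or more counts in 10 or more libraries were tested in 1 fit of 12 groups (12 residual degrees of freedom) with edgeR 4.0.16 (TMM scaling, quasi-likelihood test, Benjamini-Hochberg adjustment over all genes, threshold 0.05) in R 4.3.3. The R6/2 and Hsf1-/- comparisons of untreated mice average the control and vehicle contrasts. The code was tested on simulated data. Transcript windows of 40 bases were searched in mm9. Totals per library set the counting precision. Named were the study's qPCR reference genes, the isoform and c-subunit genes, in each comparison the called members (all if 10 or fewer, otherwise up to 5 per complex with the largest changes) and the highest and lowest member, up to 5 called genes of each other list, and the 5 genes most like the members. Other members named (those that missed the threshold, with many shared windows, or high or low in 1 library) were chosen after their values were seen. Members and gene lists were chosen with earlier results of these data known. Alternatives were other scalings, filters, DESeq2 1.42.0, a replicate block, the compared groups alone and leaving out each mouse. Some subunit genes are not reported here.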

Additional observations from a re-analysis of the deposited data

How the results depend on the processing

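Scaling decided the direction of the R6/2 comparison. By library size alone, 24 members were called over untreated mice (median log2 fold change 0.06), 6 among control mice (median 0.06) and 12 among vehicle mice (median 0.01). Of the 13754 tested genes, 8876, 6010 and 7652 were called on this scale, most of them higher (8455, 5756 and 7363). In untreated mice the value became positive for Atp5b (0.05), Cox4i1 (0.13), Cox5a (0.10), Cox6b1 (0.21), Cox7a2 (0.16), Cox7b (0.06), Cox8b (0.16), Sdhc (0.35), Sdhd (0.15), Uqcrh (0.13), Etfb (0.26), Tfam (0.09), Twnk (0.13) and Tfb1m (0.18). In control mice it did for Atp5b (0.11), Atp5e (0.03), Atp5j2 (0.00), Cox7b (0.02) and Uqcrq (0.04), and in vehicle mice for Cox4i1 (0.08), Cox5b (0.09), Cox6b1 (0.14), Cox7a2 (0.09), Cox8b (0.16), Sdhc (0.24) and Uqcrh (0.08). The log2 ratio of summed levels was then -0.01 for all members, -0.02 for complex I, -0.28 for II, -0.10 for III, 0.10 for IV and 0.02 for V. By library size 2 members were called in untreated Hsf1-/- mice and by DESeq2 4, beside 132 and 369 of all tested genes. Among Hsf1-/- control mice 2 were called with RLE size factors, 2 with TMM without the 20 most abundant genes and 2 without a filter. In these control mice DESeq2 called 13 (733 of all tested genes) and the compared groups alone gave 19 (766). R6/2 control mice gave 1 from the compared groups alone (492 of all tested genes). The HS less HSP990 response of wild type mice gave 1 by DESeq2 (648 of all tested genes). The other causes were not tested.

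Leaving out 1 mouse gave 59 to 66 calls in untreated R6/2 mice (median -0.60 to -0.49), 3 to 34 in control mice (-0.58 to -0.33) and 40 to 53 in vehicle mice (-0.71 to -0.63). It gave 0 to 0 in Hsf1-/- control mice (-0.35 to -0.23, and -0.26 to -0.19 in untreated Hsf1-/- mice), 0 to 11 for HS in R6/2 mice, 0 to 4 for its difference from wild type, and 0 to 1 and 0 to 5 for the HS less HSP990 response of wild type and R6/2 mice. Deviations of same-numbered mice had correlations of -0.33 to 0.35 over 66 pairs of groups (median -0.02, 10 above 0.1). Whether same-numbered mice shared a litter was not tested, and the numbers are used here only to name mice. With the number as a replicate block 67 members were called in untreated R6/2 mice and 2 in Hsf1-/- control mice, beside 4103 and 185 of all tested genes.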
